A study of Mus musculus with 13 samples.

Results

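The 8 libraries described here are the 4 pull-downs with the KHT bait and the 4 input libraries (IPT) among the 13 libraries of the series, set out by an expression pattern that crosses those labelled groups. KHT 1, KHT 2 and IPT 1 had high Trib3, Aldh1l2, Asns and Chac1 with low Nr4a1, and KHT 3, KHT 4, IPT 2, IPT 3 and IPT 4 had the opposite. The former 3 are called the Trib3-high libraries and the latter 5 the Trib3-low libraries. The libraries were thus chosen by levels of these genes, measured in the same libraries, and no label names the split, so each difference between the 2 sets is a description with no test. The label of an amino acid stress state was not tested. Counts of amino acid response genes cannot check it, because their list holds markers of the split. That list was also chosen with earlier results of these data known. Of its 40 tested members, 5 of which were given as markers of the split, 30 were higher in the Trib3-high libraries and none was lower, beside 4.23% and 3.89% of all genes tested.

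All libraries came from MA-10, a mouse Leydig tumour cell line that makes steroids, grown in RPMI medium with horse serum. In KHT, total RNA was mixed with purified protein of the KH and Tudor domains of dAKAP1, a mitochondrial outer membrane protein that anchors kinase A, and the protein was recovered through its maltose-binding protein (MBP) tag. IPT is RNA of untreated cells that went into such pull-downs, after depletion of ribosomal RNA. The 5 NEG libraries are control pull-downs with empty beads, MBP or KHT(GDDG) as bait, with no label saying which is which, and NEG 2 held 0 counts. The pull-downs were made on extracted RNA. The labels give no starvation, drug or hormone treatment of the cells and tie no library to a culture or a day.

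Cells short of an amino acid, or under another stress that leads to phosphorylation of the initiation factor eIF2 alpha, slow general translation while the transcription factor Atf4 is made. Atf4 switches on genes for amino acid synthesis, amino acid import and tRNA charging and, when the stress lasts, for cell death. Nr4a1 belongs to the immediate early genes, which are transcribed within minutes of a growth or hormone signal and which in Leydig cells respond to luteinising hormone through cyclic AMP.

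Atf4 with a C/EBP partner binds an element known as CARE, searched here as TGATGNAA on both strands in the 250 bases before each start site. Promoters from RefSeq (GRCm38.p6) were matched for 34 of the 40 tested amino acid response genes. Of these 34, 9 held CARE (26.5%), beside 183 of 8059 matched tested genes (2.27%). The list was drawn up as Atf4 targets, so a larger share in it may follow from that choice alone. The 9 genes were Atf3, Chac1, Slc7a11, Asns, Nupr1, Jdp2, Pck2, Vldlr and Got1. Trib3, which names the sets, was matched and is not among them. The promoters of Chac1 (chr2:119350992-119351241, plus strand), Slc7a11 (chr3:50443614-50443863, minus strand) and Asns (chr6:7693210-7693459, minus strand) are shown 5′ to 3′ because they hold the element in genes of the pattern. Capitals mark the CARE matches, which read TTGCATCA where the match is on the opposite strand.
Chac1: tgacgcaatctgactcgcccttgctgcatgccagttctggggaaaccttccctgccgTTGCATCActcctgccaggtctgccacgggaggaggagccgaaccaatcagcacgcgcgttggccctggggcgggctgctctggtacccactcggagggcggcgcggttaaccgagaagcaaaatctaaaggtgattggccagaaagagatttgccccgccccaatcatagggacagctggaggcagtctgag
Slc7a11: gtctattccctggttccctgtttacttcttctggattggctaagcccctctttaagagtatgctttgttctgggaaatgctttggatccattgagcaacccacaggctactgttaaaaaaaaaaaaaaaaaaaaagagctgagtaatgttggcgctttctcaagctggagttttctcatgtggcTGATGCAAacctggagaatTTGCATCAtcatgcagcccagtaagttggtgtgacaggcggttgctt
Asns: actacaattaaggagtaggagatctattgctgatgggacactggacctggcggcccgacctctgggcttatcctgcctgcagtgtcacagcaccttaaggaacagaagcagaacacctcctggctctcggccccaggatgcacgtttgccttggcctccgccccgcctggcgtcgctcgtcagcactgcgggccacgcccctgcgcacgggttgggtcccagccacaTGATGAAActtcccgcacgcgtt

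Slc7a11 held 2 matches, on opposite strands, and Chac1 and Asns held 1 each. The element stood in 16 of 346 matched genes that were higher in the Trib3-high libraries (4.62%) and in 8 of 296 that were lower (2.70%). Among cytosolic tRNA synthetase genes 3 of 13 matched promoters held it (23.1%), those of Gars, Aars and Tars. A match describes these letters and does not make a binding site.

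Immediate early genes were searched for TGACG, the core of the cyclic AMP response element (CRE, TGACGTCA, which contains it). The core stood in 17 of 26 matched immediate early promoters (65.4%), beside 32.2% of matched tested genes. The full CRE stood in 3 of the 26 (11.5%), beside 3.14%. Over all matched genes called lower the shares were 29.7% for the core and 2.70% for the full CRE. The core also stood in 44.1% of the 34 amino acid response promoters, in 6 of 12 heat shock promoters (50%) and in 7 of 17 of the cholesterol list (41.2%). The Nr4a1 promoter (chr15:101266596-101266845, plus strand) is shown because this gene defined the low side of the split. It held 4 cores, in capitals, each on the opposite strand and so read as CGTCA.
Nr4a1: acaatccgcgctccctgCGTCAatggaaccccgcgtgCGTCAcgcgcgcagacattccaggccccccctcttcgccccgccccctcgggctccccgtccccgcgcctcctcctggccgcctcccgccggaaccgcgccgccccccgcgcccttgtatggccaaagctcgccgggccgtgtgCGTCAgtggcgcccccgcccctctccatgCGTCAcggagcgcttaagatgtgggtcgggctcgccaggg

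Trib3, a pseudokinase that Atf4 induces and that in turn restrains it, stood at 232 and 194 normalised counts-per-million (CPM) in KHT 1 and KHT 2 and at 204 CPM in IPT 1. In the Trib3-low libraries it stood at 16.0 CPM in KHT 3, 14.0 in KHT 4, 4.18 in IPT 2, 15.2 in IPT 3 and 5.61 in IPT 4. The sets did not overlap, and IPT 2 and IPT 4 were lowest. The log2 difference, Trib3-high minus Trib3-low with pull-down group as covariate, was 4.20 for Trib3 (chromosome 2, 152337425 to 152344060, GRCm38). All log2 differences given below are on this scale and with this sign.

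Aldh1l2, the mitochondrial formyltetrahydrofolate dehydrogenase, had the largest positive difference of the tested genes (4.99; chromosome 10, 83487447 to 83534146). Its levels were 229, 206 and 201 CPM in KHT 1, KHT 2 and IPT 1, against 7.86 and 9.34 CPM in KHT 3 and KHT 4 and 2.66, 9.19 and 3.65 CPM in IPT 2, IPT 3 and IPT 4. Chac1, which degrades glutathione, stood at 48.0, 55.7 and 50.4 CPM in the same Trib3-high libraries and at 4.23, 8.01, 3.04, 7.19 and 2.24 CPM in KHT 3, KHT 4, IPT 2, IPT 3 and IPT 4 (difference 3.41; chromosome 2, 119351242 to 119354326). For Aldh1l2 and Chac1 alike, IPT 2 and IPT 4 were again the lowest libraries.

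Asns, asparagine synthetase, differed less (chromosome 6, 7675165 to 7693209). It stood at 133, 114 and 118 CPM in KHT 1, KHT 2 and IPT 1 and at 34.5, 48.7, 17.5, 24.4 and 22.4 CPM in KHT 3, KHT 4, IPT 2, IPT 3 and IPT 4 (difference 1.99). Ddit3, the stress transcription factor also called CHOP, stood at 156, 146 and 169 CPM against 25.1, 35.4, 22.0, 27.6 and 28.3 CPM in the same order (difference 2.51; chromosome 10, 127290793 to 127296291). Neither gene's sets overlapped. Atf4 itself, whose protein is regulated mainly by translation, stood at 516, 439.6 and 482 CPM against 255, 296, 265, 274 and 256 CPM, a difference of 0.83 with no overlap.

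Nr4a1, an orphan nuclear receptor of the immediate early class, had the opposite pattern (chromosome 15, 101253902 to 101274795). It stood at 24.0, 18.4 and 25.04 CPM in KHT 1, KHT 2 and IPT 1. In KHT 3, KHT 4, IPT 3 and IPT 4 it stood at 671, 516, 649.9 and 441 CPM, and in IPT 2 at 168 CPM, between the other Trib3-low libraries and the Trib3-high ones. The difference was -4.46.

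**Figure D1:**
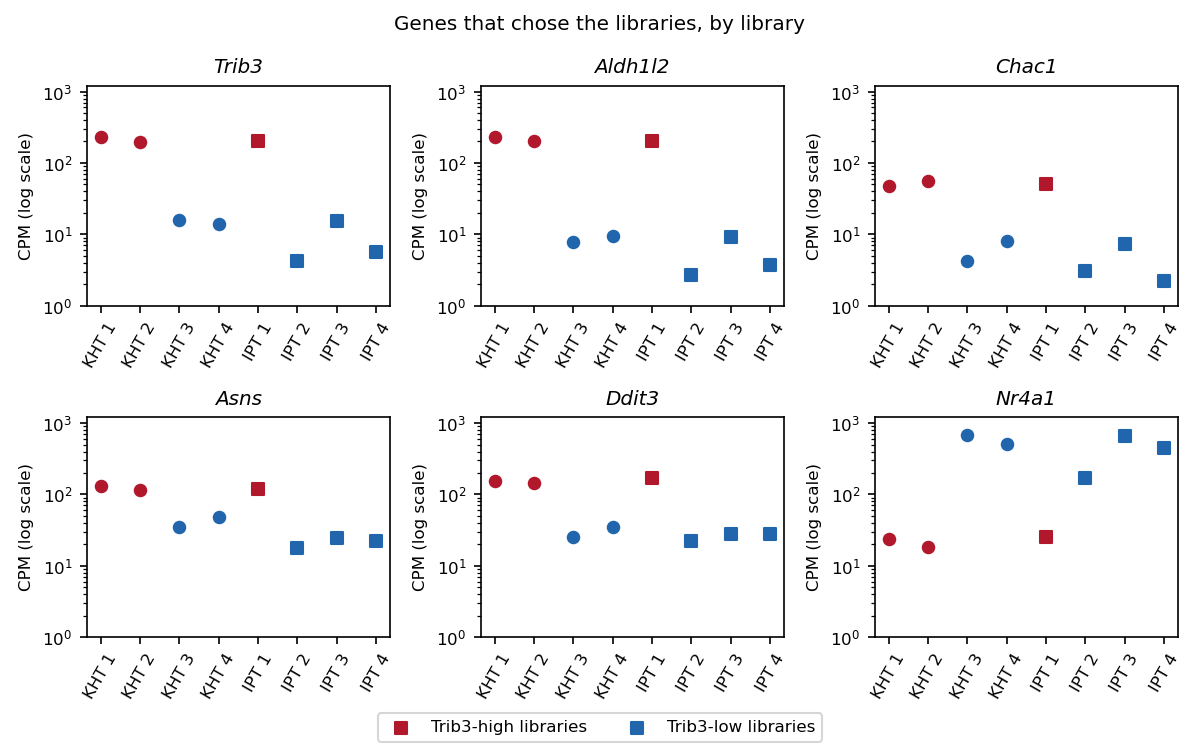
Level of Trib3, Aldh1l2, Chac1, Asns, Ddit3 and Nr4a1 in each KHT library (circles) and IPT library (squares), in CPM on a log scale, with the 3 Trib3-high libraries in red and the 5 Trib3-low libraries in blue. Each point is 1 library; for Trib3 the red points lie at 194 CPM or above and the blue points at 16.0 CPM or below, and for Nr4a1 the order is turned.

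Over all 10908 genes tested, 461 were at least 2-fold higher in the Trib3-high libraries with no overlap within KHT and none within IPT (4.23%), and 424 were lower by the same rule (3.89%). The median log2 difference over all tested genes was 0.01. With total counts in place of TMM scaling that median moved to 0.21, and the calls became 744 higher and 254 lower, so that genes called higher made up 74.5% of the calls in place of 52.1%. Without IPT 1 there were 719 higher and 635 lower. The rule used this contrast, so these shares describe the split. The nearest genes inside the 2-fold threshold on the higher side were Fmnl3 (1.00157), Fance (1.00169) and A930037H05Rik (1.00243), with Eef2k (0.999692), Ube2w (0.998822) and Dhdh (0.997946) just outside. On the lower side Cyb5r3 (-1.00008), Tle4 (-1.00116) and Fbxo34 (-1.00201) lay just inside and Aldh1a7 (-0.999821), Syt12 (-0.999597) and Tle2 (-0.998903) just outside.

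Of 46 listed amino acid response genes 40 were tested, and their median difference was 1.64. Counts called in this list and in those below stand beside 4.23% higher and 3.89% lower over all genes tested. The 30 called genes included enzymes of amino acid synthesis, transporters and stress regulators. Cth, cystathionine gamma-lyase, which makes cysteine, stood at 134, 137 and 131 CPM in KHT 1, KHT 2 and IPT 1 and between 12.1 and 19.4 CPM in the other 5 libraries (difference 3.04). Sesn2, a leucine sensor that restrains mTORC1, stood at 128, 128 and 115 CPM and between 14.8 and 33.4 CPM (2.31). Ppp1r15a, which helps dephosphorylate eIF2 alpha, stood at 141, 129 and 142 CPM against 14.7 to 30.6 CPM (2.50). Each of the 3 genes had a gap between the sets in both pull-down groups.

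The 10 members not called were Atf4 (0.83), Atf3 (-0.60), Psat1 (0.88), Phgdh (0.71), Slc3a2 (0.95), Slc38a2 (0.50), Cebpb (0.35), Lonp1 (0.94), Mthfd1l (0.51) and Gpt (-0.77). Atf3 and Gpt were the members with negative differences. The remaining 6 listed genes did not pass the filter on low counts. Cbs, cystathionine beta-synthase, had 76 counts over the 3 Trib3-high libraries and 1 over the 5 others, Stc2 30 and 1, Pycr1 139 and 26, Fgf21 5 and 0, Bcat1 3 and 0, and Slc7a3 4 and 19. The filter asked for expression in at least as many libraries as the smaller labelled group holds, which genes seen in 3 libraries alone do not meet. Genes seen in the 5 Trib3-low libraries alone can meet it, so the filter does not treat the 2 sides alike.

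In serine and folate metabolism 17 of 20 listed genes were tested, and 4 were called higher (23.5%), with a median of 0.31. Aldh1l2 was followed by Psph, the last enzyme of serine synthesis, which stood at 51.5, 50.2 and 59.1 CPM in KHT 1, KHT 2 and IPT 1 against 15.4 to 22.0 CPM (1.59). Mthfd2 (1.32) and Shmt2 (1.29), enzymes of the mitochondrial folate pathway, were the other two. Cytosolic Shmt1 (-0.29) and Mthfd1 (0.01) and the nucleotide enzymes Tyms (-0.29), Gart (-0.07) and Atic (0.02) were near 0, and were picked to stand beside them after their values were seen.

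Amino acid transporters were tested for 18 of 32 listed genes, with 8 called higher (44.4%), none lower and a median of 0.72. Slc1a5, a glutamine carrier, stood at 208, 205 and 201 CPM in KHT 1, KHT 2 and IPT 1 and at 26.9 to 40.0 CPM in the other 5 (2.53). The glycine carrier Slc6a9 (2.55), the alanine and serine carrier Slc1a4 (2.49) and Slc7a7, part of a cationic amino acid exchanger (2.21), were also called. Slc7a11, the cystine importer, was near the threshold (1.04), at 186, 219.8 and 163 CPM against 55.0 to 111 CPM.

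All 21 listed cytosolic tRNA synthetases were tested, of which 7 were called higher (33.3%) and none lower, with a median of 0.71. Eprs, which charges glutamate and proline tRNAs, stood at 940.3, 917 and 889.6 CPM in KHT 1, KHT 2 and IPT 1 and at 292, 315, 272, 355 and 268 CPM in KHT 3, KHT 4, IPT 2, IPT 3 and IPT 4 (1.60). The synthetases for leucine (Lars, 1.81), isoleucine (Iars, 1.39) and tryptophan (Wars, 1.21) were likewise called. Those for glutamine (Qars, -0.60) and histidine (Hars, -0.52) had negative differences, and were named after their values were seen.

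The kinases that phosphorylate eIF2 alpha showed small differences, with Eif2ak4, which senses uncharged tRNA, at -0.10, Eif2ak3 of the endoplasmic reticulum (ER) at -0.04, Eif2ak1 at -0.25 and Eif2ak2 at -0.44. In the list of these kinases and of amino acid sensing, 2 of 25 tested genes were called, Ppp1r15a and Sesn2. Both were higher (8%, beside 4.23% of all genes tested), and the list's median was 0.01. ER chaperones and genes of the unfolded protein response were mixed. Of 29 tested genes 4 were called higher and 4 lower (13.8% each), with a median of -0.40. Hspa5, the ER chaperone BiP, stood at 1545, 1447 and 1522 CPM in KHT 1, KHT 2 and IPT 1 against 578 to 913 CPM (1.18). The oxidase Ero1l (2.25) and Herpud1 of ER-associated degradation (1.51) were also higher, whereas Sec61b of the translocon was lower (-1.16). Other chaperones of the list had negative differences that were not called, such as Calr (-0.95), Pdia3 (-0.61) and Hsp90b1 (-0.42), named after their values were seen.

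Outside these lists the largest positive differences belonged to Soat2, which esterifies cholesterol (3.68), Stard5, a lipid transfer protein (3.57), the transcription factor Klf15 (3.50) and Stbd1, which binds glycogen (3.42). Soat2 stood at 59.3, 69.2 and 66.1 CPM in KHT 1, KHT 2 and IPT 1, at 6.65 and 9.34 CPM in KHT 3 and KHT 4 and at 1.52, 5.995 and 1.96 CPM in IPT 2, IPT 3 and IPT 4. Klf15 stood at 47.3, 49.0 and 57.4 CPM and between 1.998 and 7.56 CPM. The 15 largest also held Igfbp4 (3.35), Ugt1a6a (3.35), the reductase Cyb5r1 (3.16), the mitochondrial thioesterase Acot2 (2.96), the Wnt antagonist Frzb (2.95), the growth arrest gene Gadd45a (2.92) and the mitochondrial dehydrogenase Adhfe1 (2.89). Ugt1a6a shares exons with the other Ugt1a genes, so its share of reads is uncertain.

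Immediate early genes lay on the other side. Of 44 listed genes 32 were tested, and 16 were called lower (50%) and none higher. The median was -1.05, which does not depend on the size fitted for Nr4a3 at the far end of the list. Nr4a3, a relative of Nr4a1, had 0 counts in each Trib3-high library and 23.6, 10.7, 0.759, 19.6 and 6.17 CPM in KHT 3, KHT 4, IPT 2, IPT 3 and IPT 4. It was at least 33.1-fold lower in the Trib3-high libraries, against a floor of 3 counts over that set. Nr4a3 passed the filter on low counts through the Trib3-low libraries alone, so its place among the extremes describes the split only. Btg2, an antiproliferative gene, stood at 8.11, 17.1 and 7.31 CPM in KHT 1, KHT 2 and IPT 1 against 50.5 to 92.8 CPM (-2.75). The phosphatase Dusp4, which acts on mitogen-activated kinases, had a difference of -2.39, and Dusp1 one of -1.66. For Nr4a3, as for Nr4a1, IPT 2 was the lowest of the Trib3-low libraries.

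Members of the Fos, Jun and Egr families varied. Egr2 (-2.81), Fosl2 (-1.30) and Egr1 (-1.29) were called lower, whereas Fos (-0.70), Fosb (-0.76), Jun (-0.73) and Junb (-0.98) were not called, and Jund had a positive value (0.65). Myc (-0.30) and Ier2 (-0.43) were not called and Ier3 was (-1.04). These members were named after their values were seen. The remaining 10 genes of the list in the file had at most 24 counts in any library and were not tested. Among them Egr4 had 8 counts over the Trib3-high and 72 over the Trib3-low libraries, and Arc 0 and 33.

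Among named genes outside the Nr4a family, Thbs1 and Msc had the most negative differences. Thbs1, thrombospondin, had 0, 1.84 and 0.563 CPM in KHT 1, KHT 2 and IPT 1 and 45.4 to 67.0 CPM in the other 5 libraries (-6.21). The transcription factor Msc stood at 1.76, 4.90 and 3.66 CPM against 85.5 to 129 CPM (-5.05). Plau, urokinase (-3.71), the protease Prss23 (-2.89) and Tuft1 (-2.89) were among the 15 smallest, with the kinases Nuak1 (-3.75) and Plk3 (-2.88), the phosphatase Dusp10 (-2.94), Rab7b (-3.72), Mob3a (-2.84) and St3gal1 (-2.77). IPT 2 lay within the range of the other Trib3-low libraries for Thbs1 (47.8 CPM) and Msc (121 CPM). It was the lowest of the Trib3-low libraries for Plau (25.4 CPM, against 57.2 to 85.1 CPM) and for Plk3 (14.8 CPM, against 19.98 to 33.4 CPM).

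**Figure D2:**
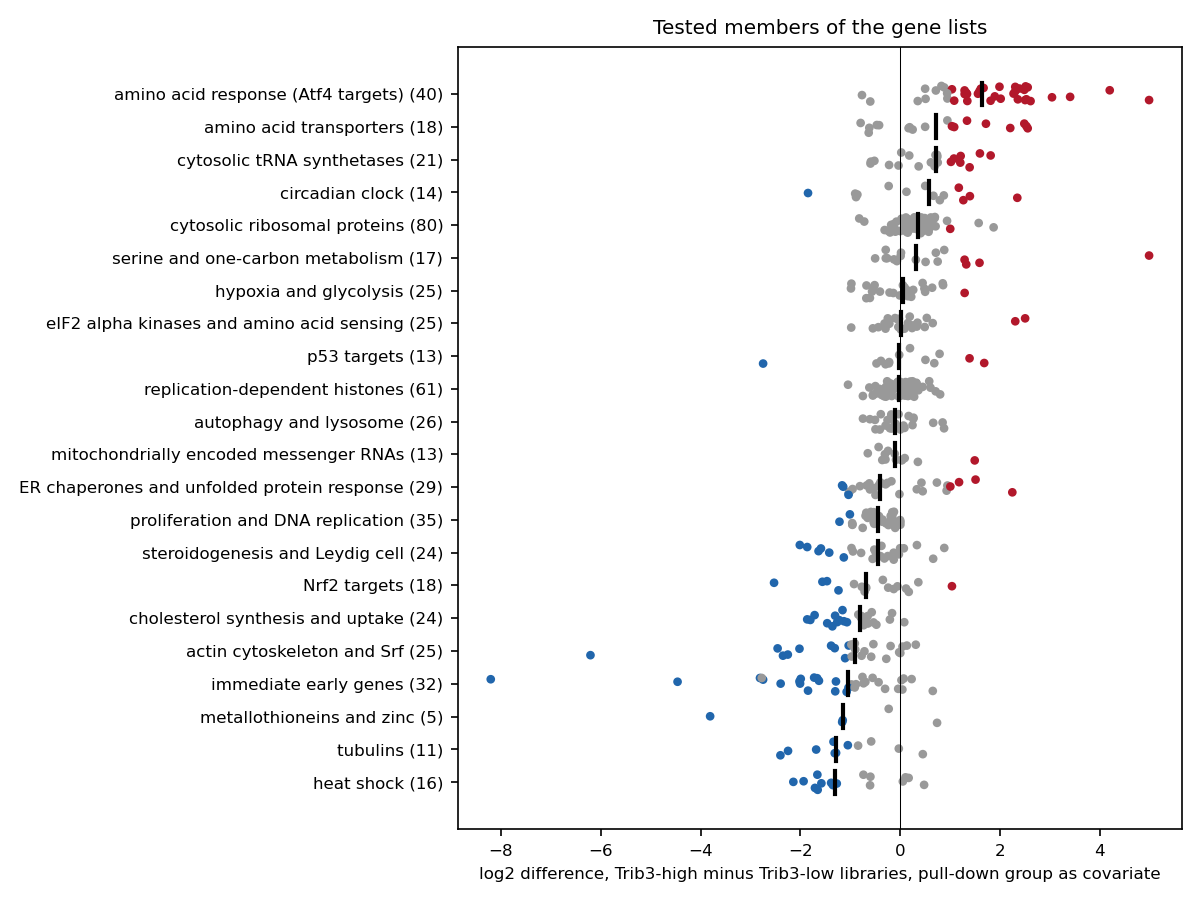
Log2 difference, Trib3-high minus Trib3-low libraries with pull-down group as covariate, of each tested member (points) of 22 gene lists, with the number tested in brackets and the list's median as a black bar. Red and blue points are genes called higher and lower, grey points are not called; the amino acid response list has its median at 1.64 and the heat shock list at -1.31.

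Steroidogenic genes, which define the Leydig cell, were lower where called. Of 24 tested of 28 listed, 6 were lower (25%) and none higher, with a median of -0.44. With total counts in place of TMM scaling, 5 were called lower and 1 higher. Cyp11a1, the side-chain cleavage enzyme that starts steroid synthesis, stood at 69.8, 76.5 and 67.0 CPM in KHT 1, KHT 2 and IPT 1 and at 248, 282, 336, 233 and 364 CPM in KHT 3, KHT 4, IPT 2, IPT 3 and IPT 4 (-2.01). Its electron donor Fdx1 stood at 79.0, 65.5 and 74.3 CPM against 203 to 293 CPM (-1.64), and Cyp17a1, which leads to androgens, at 13.4, 17.8 and 15.8 CPM against 28.7 to 83.6 CPM (-1.59). Star, which brings cholesterol into mitochondria, was chosen after its values were seen and overlapped. It stood at 81.5, 69.8 and 74.8 CPM in KHT 1, KHT 2 and IPT 1, at 168 and 146 CPM in KHT 3 and KHT 4 and at 167 and 155 CPM in IPT 3 and IPT 4, but at 71.0 CPM in IPT 2. The Leydig regulators Nr5a1 (-0.13) and Lhcgr (-0.13) differed little. Hsd3b6 (0.88), Scarb1 (0.66) and Soat1 (0.34) of the list had positive differences without overlap that were not called. These 3 were named after their values were seen.

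Genes of cholesterol synthesis and uptake were called lower in 11 of 24 tested (45.8%), none higher, with a median of -0.81. Hsd17b7, a late enzyme of the synthesis pathway that is listed under steroidogenesis too, stood at 20.5, 19.6 and 19.4 CPM in KHT 1, KHT 2 and IPT 1 and between 59.6 and 86.8 CPM in the other 5 (-1.86). Mvd, of the mevalonate part of the pathway, stood at 29.3, 21.4 and 20.5 CPM against 46.3 to 80.1 CPM (-1.46). The sets did not overlap for either gene.

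Cytosolic heat shock genes were called lower in 9 of 16 tested (56.25%), with a median of -1.31. Hspa1a, an inducible chaperone of the Hsp70 family, stood at 6.35, 3.67 and 6.47 CPM in KHT 1, KHT 2 and IPT 1 and between 19.6 and 38.0 CPM in the others (-2.14). Its near-identical copy Hspa1b (-1.66) can share reads with it, so the split between the pair is uncertain. Hspb1 (-1.94) and Hsph1 (-1.71) were also lower. Hsph1 came closer to an overlap, with 16.6, 19.6 and 20.5 CPM against 27.0 CPM in IPT 2, the lowest of the others. The mitochondrial chaperones Hspd1 (0.17) and Hspe1 (0.05), named after their values were seen, differed little.

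Antioxidant genes under Nrf2 were called lower in 4 of 18 tested (22.2%) and higher in 1, Slc7a11 (5.56%), with a median of -0.68. Over all genes tested 3.89% were lower and 4.23% higher. Srxn1, sulfiredoxin, stood at 16.9, 15.9 and 23.4 CPM in KHT 1, KHT 2 and IPT 1, at 136, 131 and 153 CPM in KHT 3, KHT 4 and IPT 3, and at 53.9 and 70.4 CPM in IPT 2 and IPT 4 (-2.53). Hmox1, heme oxygenase, was likewise highest in KHT 3, KHT 4 and IPT 3, at 271, 273 and 285 CPM, with 174 and 105 CPM in IPT 2 and IPT 4 and 86.8, 83.3 and 81.3 CPM in KHT 1, KHT 2 and IPT 1 (-1.47). Osgin1 (-1.56) and Pgd (-1.24) were the others called.

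Lists with few called genes were those of autophagy and lysosome (0 of 26, median -0.10), hypoxia and glycolysis (1 of 25, Vegfa, 4%, median 0.05) and replication-dependent histones (0 of 61, median -0.03). Of 13 tested p53 targets 2 were called higher (15.4%) and 1 lower (7.69%), with a median of -0.02. Over all genes tested those shares were 4.23% and 3.89%. The p53 targets called higher were Rrm2b (1.68) and Trp53inp1 (1.39), and Btg2 was the one called lower. Of 35 proliferation genes the cyclins Ccnb1 (-1.22) and Ccna2 (-1.01) were called lower (5.71%, beside 3.89% of all genes tested), with a median of -0.44. Of 80 cytosolic ribosomal protein genes Rpl13a was called higher (1.00), a share of 1.25%, with a median of 0.36. Of 13 mitochondrially encoded messenger RNAs mt-Co2 was called higher (1.49), a share of 7.69%, with a median of -0.11. Ribosomal protein and histone genes have near-identical copies, which makes their single values uncertain.

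For 4 more lists the members were put together after values of these data were seen, so their counts only describe them. Of 25 tested actin and Srf genes 9 were called lower (36%, median -0.91). Actg1, cytoplasmic gamma-actin, stood at 227, 201 and 193 CPM in KHT 1, KHT 2 and IPT 1 and at 935, 1083, 984, 966 and 864 CPM in KHT 3, KHT 4, IPT 2, IPT 3 and IPT 4 (-2.25). Vcl, vinculin of focal adhesions, stood at 10.6, 15.9 and 11.3 CPM against 49.9 to 72.7 CPM (-2.35), and Fhl2 had a difference of -2.46. The CArG box, the element of serum response factor Srf, was searched within 250 bases before a start site. It lay in 7 of 22 matched genes of this list (31.8%), beside 1.35% of matched tested genes. The list was drawn up around Srf, so a larger share in it may follow from that choice alone. Over all matched genes the box stood in 13 of 296 called lower (4.39%) and 3 of 346 called higher (0.867%). Myl6 (-0.02) and Fhl1 (0.31) of the list held it and were not called. The Actg1 promoter (chr11:120348496-120348745, minus strand) is shown for the gene whose levels are given above, with its CArG box in capitals.
Actg1: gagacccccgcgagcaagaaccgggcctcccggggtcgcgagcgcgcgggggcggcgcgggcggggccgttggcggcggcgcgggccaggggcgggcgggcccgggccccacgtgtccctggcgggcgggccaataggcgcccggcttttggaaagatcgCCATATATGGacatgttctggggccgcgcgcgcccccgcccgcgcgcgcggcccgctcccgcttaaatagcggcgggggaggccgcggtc

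Tubulin genes were called lower in 7 of 11 tested (63.6%, median -1.28). Tubb2a (-2.40), Tuba1a (-1.68), Tuba1c (-1.34) and Tubb4b (-1.31) were among them, and Tubb3 had a positive value that was not called (0.45). Of 5 genes of zinc handling 3 were lower (60%, median -1.15). The zinc exporter Slc30a1 stood at 0.705, 0 and 2.81 CPM in KHT 1, KHT 2 and IPT 1 against 14.0 to 33.4 CPM (-3.81), and the zinc-binding metallothioneins Mt1 (-1.15) and Mt2 (-1.16) were lower as well. Of 14 clock genes 4 were higher (28.6%), including Ciart (2.35), Cry2 (1.40) and Nr1d1 (1.27). Per1 was lower (-1.85), a share of 7.14%, and the median was 0.58. Per1 also stands in the immediate early list.

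KHT and IPT share no library, so the difference between the sets was also taken within each, on the log2(CPM + 1) scale. Within KHT, 2 libraries against 2, 620 genes were at least 2-fold higher in the Trib3-high libraries without overlap (5.68%) and 548 were lower (5.02%). Within IPT, 1 library against 3, 611 were higher (5.6%) and 536 lower (4.91%). Over all genes tested the median difference within IPT was 0.01. Of the 620, 561 had a positive difference within IPT (90.5%), 279 were called higher there too (45% of the 620 and 45.7% of the 611), and 4 were called lower. Of the 548, 478 had a negative difference within IPT (87.2%), 234 were called lower (42.7% of the 548 and 43.7% of the 536), and 8 were called higher. The libraries of both groups were split by the same marker genes, so this is not independent of the rule. Across the 10908 genes Pearson's r of the 2 differences was 0.53, and it was 0.61 over 6447 genes whose mean was 20 CPM or more. Genes are not independent replicates.

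The size of the difference varied between the groups from gene to gene. Cth differed by 3.02 within KHT and 2.99 within IPT, Eprs by 1.61 and 1.58 and Actg1 by -2.23 and -2.27. Trib3 differed by 3.74 and 4.64, Aldh1l2 by 4.51 and 5.18, Soat2 by 2.87 and 4.17 and Slc6a9 by 1.88 and 3.08. Among genes lower in the Trib3-high libraries, Slc30a1 differed by -4.55 and -2.05 and Rab7b by -2.56 and -4.43. These examples were chosen after their values were seen. The list medians were closer, at 1.496 within KHT and 1.78 within IPT for the amino acid response, -1.20 and -1.10 for immediate early genes, -0.97 and -1.03 for heat shock and -0.68 and -0.61 for Nrf2 targets. These values within groups were not tested for a difference.

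**Figure D3:**
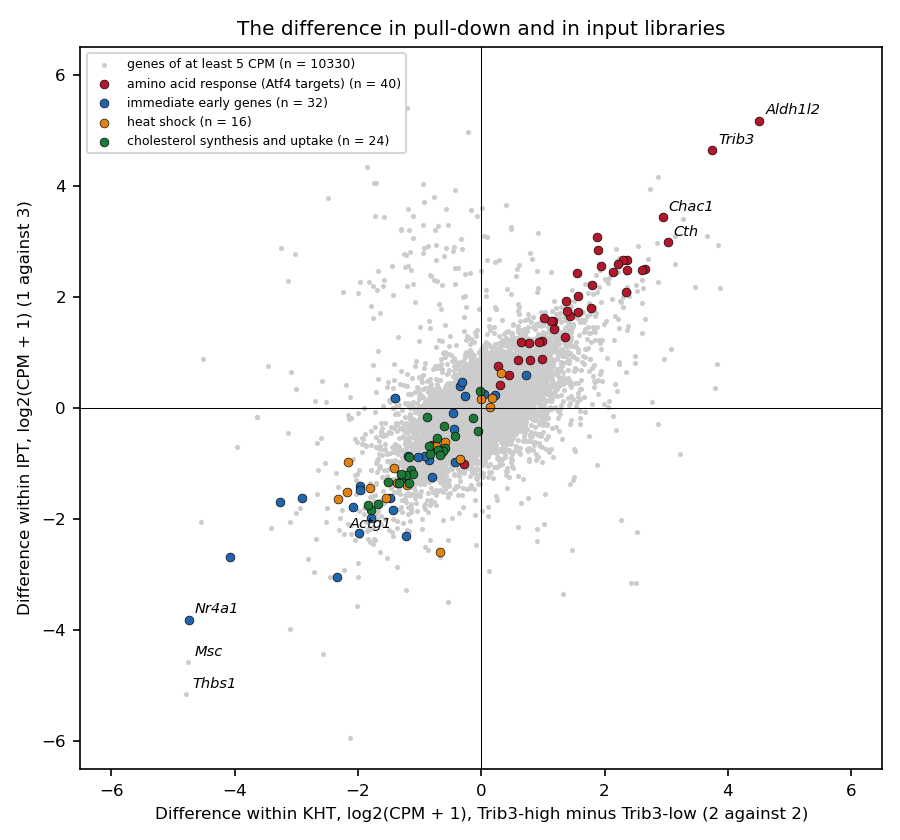
Difference between the Trib3-high and Trib3-low libraries within KHT (horizontal axis, 2 libraries against 2) and within IPT (vertical axis, 1 against 3), both on the log2(CPM + 1) scale. Each point is a gene, grey for tested genes averaging 5 CPM or more and coloured for 4 lists; Trib3 and Aldh1l2 lie at the upper right, and Nr4a1, Msc and Thbs1 at the lower left.

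Whole profiles of the libraries were compared by Pearson's r of log2(CPM + 1) over the 6447 genes. KHT 1 was most like IPT 1 (0.933) and so was KHT 2 (0.910), although both are pull-downs and IPT 1 is input. KHT 3 (0.932) and KHT 4 (0.913) were most like IPT 3, and IPT 2 and IPT 4 were most like each other (0.961). KHT 1 and KHT 2, both Trib3-high pull-downs, reached 0.813, below the 0.864 of KHT 1 with IPT 2. Without the genes called between the sets, KHT 1 with IPT 1 stood at 0.928, KHT 2 with IPT 1 at 0.903, KHT 3 with IPT 3 at 0.929, KHT 4 with IPT 3 at 0.908 and KHT 1 with KHT 2 at 0.797. Over the 3718 genes left when every gene whose sets do not overlap was taken out, called or not, the order was another one. KHT 1 was then most like IPT 2 (0.933, against 0.894 with IPT 1) and KHT 2 most like KHT 4 (0.892, against 0.858 with IPT 1). KHT 3 and KHT 4 were then more like IPT 1 (0.902 and 0.898) than IPT 3 (0.894 and 0.865). That set of genes was itself chosen by overlap between the libraries. The libraries share abundant genes and differ in depth, and these values are descriptions.

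**Figure D4:**
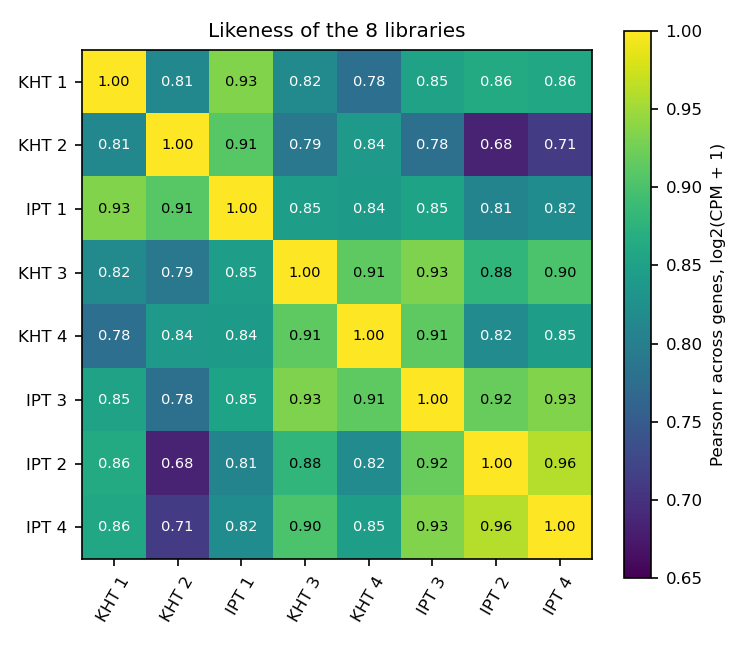
Pearson's r between the log2(CPM + 1) profiles of each pair of the 8 libraries over 6447 genes, coloured from low (dark) to high (yellow), with the 3 Trib3-high libraries listed first. IPT 1 lies close to KHT 1 and KHT 2, and the lowest value is that of KHT 2 with IPT 2 (0.68).

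By the pattern over the 8 libraries, centred within KHT and within IPT, the genes averaging 20 CPM or more that were most like the mean of Trib3, Aldh1l2, Chac1, Asns and Ddit3 were Dip2c (r = 0.999), Slc1a5 (0.997), Sesn2 (0.996), Vegfa (0.995), Vdac3 (0.994), Inpp5b (0.994), Cyb5r1 (0.994), Psph (0.993), Eprs (0.993) and Soat2 (0.992). Dip2c stood at 134, 124 and 132 CPM in KHT 1, KHT 2 and IPT 1 and between 39.5 and 58.7 CPM in the others. These correlations rest on 8 libraries that fall into 2 sets and are given as a ranking only.

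The NEG libraries took no part in the split. Of their counts in 816 called genes averaging 5 CPM or more, the share that fell in the 419 genes higher in the Trib3-high libraries was 26.3% in NEG 1 (95% exact binomial interval 21.6 to 31.4), 33.6% in NEG 4 (29.5 to 37.9) and 29.6% in NEG 5 (27.9 to 31.4). It was 58.3% in NEG 3 (55.0 to 61.6). The same share was 75.1%, 75.8% and 75.2% in KHT 1, KHT 2 and IPT 1 and between 29.5% and 30.9% in the other 5 libraries, as the split fixes. NEG 3 thus lay between the 2 sets. The metallothionein gene Mt2, called lower, held 91 of the 331 counts of NEG 1, 73 of the 880 of NEG 3 and 31 each in NEG 4 and NEG 5. Without Mt2, left out after its counts were seen, the share was 36.3% in NEG 1 (30.2 to 42.7), 63.6% in NEG 3 (60.1 to 66.9), 35.8% in NEG 4 (31.5 to 40.3) and 29.9% in NEG 5 (28.2 to 31.7). The intervals cover counting error only, over 331, 880, 500 and 2686 counts in NEG 1, NEG 3, NEG 4 and NEG 5.

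Single genes were too thinly covered in NEG to read. Trib3 had 0 counts in all 4 NEG libraries that held counts. Aldh1l2 had 4 counts and Asns 6 in NEG 3, while Nr4a1 had 43 counts in NEG 5 and 0 in the other 3. Of the counts in the tested amino acid response and immediate early lists, the former took 76.7% in NEG 3 (69.0 to 83.3), 55.2% in NEG 5 (49.9 to 60.5), 65.9% in NEG 1 (49.4 to 79.9) and 35.5% in NEG 4 (24.9 to 47.3). The corresponding share was 84.9% to 85.6% in the Trib3-high and 48.6% to 55.5% in the Trib3-low libraries.

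**Figure D5:**
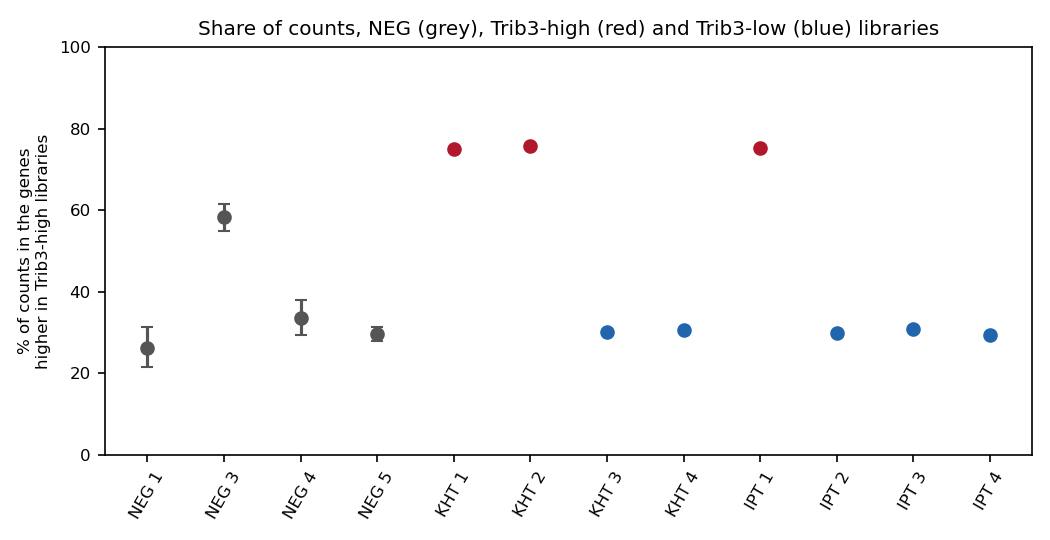
Share of counts, in percent, that fell in the 419 genes higher in the Trib3-high libraries, out of all counts in the 816 called genes averaging 5 CPM or more, for each NEG library (grey), Trib3-high library (red) and Trib3-low library (blue). Bars are 95% exact binomial intervals for counting error; NEG 3 lies at 58.3%, and NEG 1, NEG 4 and NEG 5 between 26.3% and 33.6%.

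The comparison of KHT with IPT asks which RNAs the bait held relative to its input, and it does not use the split. edgeR's quasi-likelihood test with 4 libraries a group called 1 gene higher in KHT, Rpl38-ps2, a ribosomal protein pseudogene, and 1 lower, the gene model Gm37357, at an adjusted p under 0.05 (0.00917% each of 10908), with 312 genes (2.86%) at an unadjusted p under 0.05. None of the markers of the split passed. Trib3 had a log2 fold change (KHT minus IPT) of 0.98 (SE 1.52, edgeR adjusted p = 0.997), Aldh1l2 1.05 (SE 1.70), Chac1 0.84 (SE 1.22), Asns 0.84 (SE 0.76) and Ddit3 0.54 (SE 0.93), each with the same adjusted p, and Nr4a1 -0.06 (SE 1.38, edgeR adjusted p = 0.9996). The standard error exceeded the size of the difference for every marker except Asns. Without KHT 4, IPT 2, IPT 3 or IPT 4 no gene passed in edgeR, with 150 to 317 genes at an unadjusted p under 0.05.

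With the 2 sets as a covariate the standard errors of the markers were smaller. Trib3 then had 0.45 (SE 0.39, edgeR adjusted p = 0.970), Aldh1l2 0.36 (SE 0.29), Chac1 0.23 (SE 0.30), Ddit3 0.03 (SE 0.14), Asns 0.56 (SE 0.19, edgeR adjusted p = 0.956) and Nr4a1 0.31 (SE 0.48). None passed, and 4 of the 10908 genes did (0.0367%), of which Rpl38-ps2 was higher and Gm37357, Gm10800 and Gm25939 were lower in KHT. At an unadjusted p under 0.05 there were 466 genes. The covariate was read from the same libraries, so these values are not independent of the split. Of the amino acid response and immediate early genes, the lowest edgeR adjusted p in the fit without it was 0.997, a value the markers share. Those with the smallest unadjusted p in edgeR were Cebpb (log2 fold change 0.48), Ier2 (-0.39), Slc7a11 (0.69) and Dusp1 (-0.88). Nothing in the labels says that the libraries of a group came from separate cultures, so p-values measure only the spread between these libraries.

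Several library measures were set beside the split, and their part in it was not tested. Total counts ran from 1955446 to 3689792. The 9 features that each held at least 0.5% of the pooled NEG counts took 26.7% to 52.7% of these totals. There was no order by set (29.3%, 46.4% and 28.9% in KHT 1, KHT 2 and IPT 1). Defining Leydig cell markers were present in all 8 libraries, and the sum of 8 of them was 807 to 852 CPM in the Trib3-high and 1252 to 1628 CPM in the Trib3-low libraries. Those 8 did not move alike. Nr5a1 (-0.13), Lhcgr (-0.13) and Hsd3b1 (-0.001) differed little, Cyp11a1, Fdx1, Cyp17a1 and Insl3 (-1.13) were called lower, and Star (-0.95) was not called. All libraries came from MA-10 cells, and such bulk RNA gives no values per cell. Sertoli cell markers, 7 listed of which Amh, Fshr and Cldn11 had at most 4 counts in a library, summed to 168 to 178 CPM in the Trib3-high and 170 to 232 CPM in the Trib3-low libraries. Macrophage markers summed to at most 4.67 CPM and germ cell markers to at most 9.85 CPM in any library. Endothelial and peritubular markers summed to 36.0 to 45.3 CPM and 34.8 to 76.0 CPM. Epithelial markers summed to 79.0 CPM in KHT 2 and to 1.52 to 24.0 CPM elsewhere.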

How the data were processed

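RNA sequencing of KHT pull-downs, IPT and NEG was deposited as 1 table of estimated counts (expected counts) per gene. Per the submitters' processing notes the authors used kallisto and DESeq2 with GRCm38 and mm10; versions, roles and the step from transcripts to genes are not given in the sources used here. The deposited values were whole numbers. Groups were taken from titles, because the description of the KHT samples speaks of negative controls. The labels name both polyA RNA and a stranded total RNA kit with ribosomal depletion, which was not settled. Symbols were matched for 27004 of 27071 identifiers.

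Counts of KHT and IPT were scaled by TMM and filtered by filterByExpr (edgeR 4.0.16, R 4.3.3), which kept 10908 genes. The set difference is the coefficient of a fit with group and set. A gene was called at a difference of at least 2-fold with no overlap within KHT or within IPT. KHT with IPT was tested by glmQLFTest, two-sided, Benjamini-Hochberg adjusted over all genes, threshold 0.05, and checked on simulated counts. Alternatives used DESeq2 1.42.0, limma 3.58.1, other scalings and filters, and libraries left out. Named genes were the 6 markers, the 15 largest and 15 smallest called differences averaging 5 CPM or more (unnamed models and pseudogenes skipped), up to 4 called members a list, and 10 by likeness among genes averaging 20 CPM or more. The members and lists were chosen with earlier results of these data known, and 4 lists after their values were seen. Some genes that the rule names are not reported here. Counting intervals assume that each count is an independent molecule.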

Additional observations from a re-analysis of the deposited data

Results flagged for a closer look

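Within the 4 IPT libraries, IPT 1 stood apart from the other 3 by Dixon's ratio, the gap from the extreme library to its nearest neighbour over the whole range, in genes the text names with their values by library. It was the highest library for Trib3 (ratio 0.945), Aldh1l2 (0.967), Chac1 (0.897), Asns (0.931), Ddit3 (0.957), Atf4 (0.918), Cth (0.939), Slc1a5 (0.925), Sesn2 (0.865), Soat2 (0.931), Klf15 (0.965), Cyb5r1 (0.929) and Eprs (0.860). It was the lowest for Actg1 (0.849) and Slc30a1 (0.906). Ratios past Dixon's 95% critical value for 4 libraries are given. Among 94 genes looked at, IPT 1 passed it as the highest in 26 and as the lowest in 8, and no KHT library passed it. Chance flags about 1 in 20 groups. The genes were chosen for a split that sets IPT 1 against the other IPT libraries, so these ratios are a description of that split.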

How the results depend on the processing

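No named gene changed sign: all 1598 values of 92 named genes over up to 18 alternatives kept the sign reported. The 2-fold call was less stable. With total counts Sec61b (-0.95), Ccnb1 (-0.99), Ccna2 (-0.80), Mt1 (-0.94) and Mt2 (-0.99) fell short of it. The smallest differences over the alternatives also fell short for Slc7a11 (0.84), Rpl13a (0.87), Wars (0.94) and Pgd (-0.85). Most of the 92 genes were named because they were called, with no overlap of the sets within KHT or within IPT. Settings that leave out libraries thus left little room for a change of sign. The counts of genes that differ between the sets (461 higher, 424 lower) moved more. They were 744 and 254 with total counts, 920 and 638 without the filter on low counts, 1111 and 1058 at a 1.5-fold threshold, and 63 and 69 at a 4-fold threshold. Leaving out 1 library gave 521 to 719 higher and 446 to 635 lower, and both maxima came without IPT 1, which leaves the split to KHT. Without KHT 2 and KHT 4, the libraries with the largest share of Lars2 counts, 720 genes were higher, and without IPT 2 and IPT 4 705 were; both settings were chosen after the data were seen. Under total counts 458 of the 461 and 254 of the 424 genes remained called, and without IPT 1 414 and 354 did. A fit on the KHT libraries alone, whose own filter kept 8851 genes, gave 356 higher and 328 lower. Of the 461 and 424 genes, 248 and 203 remained called in that fit. The 620 higher and 548 lower given for KHT come from log2(CPM + 1) differences over the 10908 genes. Fewer libraries leave fewer chances of an overlap, yet the fit on KHT alone gave fewer calls, and a looser filter tests more genes.

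For KHT with IPT (1 higher, 1 lower), DESeq2 gave 1 and 14, no filter 45 and 11, total counts 1 and 2, the fit with NEG 1 and 0, limma voom 0 and 1, and the sets as covariate 1 and 3. Leaving out 1 library gave 0 to 1 higher and 0 to 3 lower. The cause was not tested. A fit with the replicate number as a block gave 1 and 1. Deviations of same-numbered libraries correlated at 0.11, -0.52, 0.24 and 0.14 for numbers 1 to 4, and no KHT library correlated best with its own number. The deviations were centred within each group and carry the split, which sets KHT 2 and IPT 2 apart. They therefore cannot decide whether the numbers pair the libraries.

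The IPT side of the split rests on 1 library, and NEG holds too few counts for single genes. Genes seen in the 3 Trib3-high libraries alone fail the filter, whereas genes seen in the 5 Trib3-low libraries alone can pass it.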
